A study of Mus musculus with 3 samples.

Results

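The genes of antigen presentation measured here are the major histocompatibility complex (MHC) chains, whose mouse symbols begin with H2-, together with the invariant chain *Cd74* and a fixed set of genes for peptide generation, peptide transport and MHC transcription. The cells were ATDC5, a chondroprogenitor line of the mouse, and the question was how these genes differ after knockdown (KD) of *Tet1*, the gene of an enzyme that oxidizes 5-methylcytosine. Members were chosen by symbol, and 16 probe sets of 15 genes were found among the 35512 probe sets of the array, of which those of 1197 genes carry a name here. They comprised 10 probe sets of 9 class I heavy chain genes, 3 genes of peptide transport and loading (*Tap1*, *Tap2* and *Tapbpl*), 2 immunoproteasome subunits (*Psmb9* and *Psmb10*) and *Cd74*. There were 3 arrays, each from cells differentiated to day 15 with insulin, transferrin and selenium after lentiviral transduction. The authors describe puromycin selection of the transduced cells before differentiation. Of the 3 arrays, 1 had a nontarget (NT) hairpin and 2 had different hairpins against *Tet1*, called hairpin 1 and hairpin 2. The labels give all 3 the genotype wild-type, and all carried an integrated hairpin vector, so no array measured cells without transduction.

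Class I molecules are carried by nearly all nucleated cells and display peptides cut from proteins of the cytosol. The immunoproteasome cuts the peptides, the TAP transporter carries them into the endoplasmic reticulum, and loading factors fit them to a heavy chain paired with the light chain *B2m*. Class II molecules display peptides from the endosomal pathway, mostly on professional antigen-presenting cells, and the invariant chain guards their binding groove and directs them to that pathway. Interferons are known to raise transcription of both classes, through an interferon response element at class I genes and through the transactivator *Ciita* at class II genes.

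The choice of genes that could be seen was not neutral. Gene names were available for the probe sets of 1 table of 1524 probe sets that the authors had selected for a difference between NT and the *Tet1* KD arrays, of which 1330 carried a name. Every member had therefore passed a selection on the same contrast, and the folds and tests of the members describe their size and are not independent evidence of a change. The selection took both directions, and 56.3% of its probe sets were higher than NT under both hairpins. Genes outside the table were not analysed here. These include *B2m*, *Tapbp*, *Psmb8*, *Psme1*, *Psme2*, *Nlrc5* and *Ciita*, 7 of the 13 genes the rule lists by name. The table named none of the 12 listed class II chain genes, 2 of 6 classical class I symbols and 7 of 35 nonclassical ones, so class II was represented by *Cd74* alone and no class I chain could be set against a class II chain.

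All 16 member probe sets had higher intensity than NT under both hairpins. Intensities are linear, in arbitrary units, and were normalized by the authors. They cannot be set against each other between probe sets, so members were compared by their fold, the intensity under a *Tet1* hairpin over that of NT. The mean log2 fold over both hairpins ran from 0.89 for *H2-M3* to 3.49 for *Cd74*, with a median of 1.35, or 2.54-fold, against a median of -0.12 over all 27311 probe sets bright enough to be tested. Centring each array on its median would therefore add about 0.12 to every log2 fold given here. The 785 other named probe sets of the table that were higher had a median of 1.19. In the limma test across 27311 probe sets, with a threshold of 0.05 on the Benjamini-Hochberg adjusted p, 14 of the 16 members passed. Over all tested probe sets 1.36% passed as higher and 0.388% as lower, and within the table, where all members lie, 24.2% passed as higher. Of all calls 77.8% were higher, and 87.9% after median centring. Without regard to the test, 12 members were at least 2-fold higher under both hairpins and 7 were at least 2.5-fold higher. Of all probe sets 1.02% were at least 2.5-fold higher under both. The members came from a table selected on the fold, and the share within that table was not counted, nor any share at 2-fold. These counts therefore describe size and not enrichment. The adjusted p-values are optimistic, as simulated data of this design had more false calls than the threshold allows. The p-values draw only on the spread between 2 cultures with different hairpins, for the most part pooled over probe sets of like intensity. This variance had 13.3 prior degrees of freedom against 1 residual. The standard error of a member therefore says little about the spread of its own hairpins. The NT array has no replicate, and in total RNA a larger share of expressing cells and more RNA per cell cannot be told apart. The calls depended on the variance model: 2 members (*Cd74* and *Tap1*) passed when the variance was not allowed to follow intensity, and none when dim probe sets were kept, where all 16 had an unadjusted p under 0.05.

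**Figure D1:**
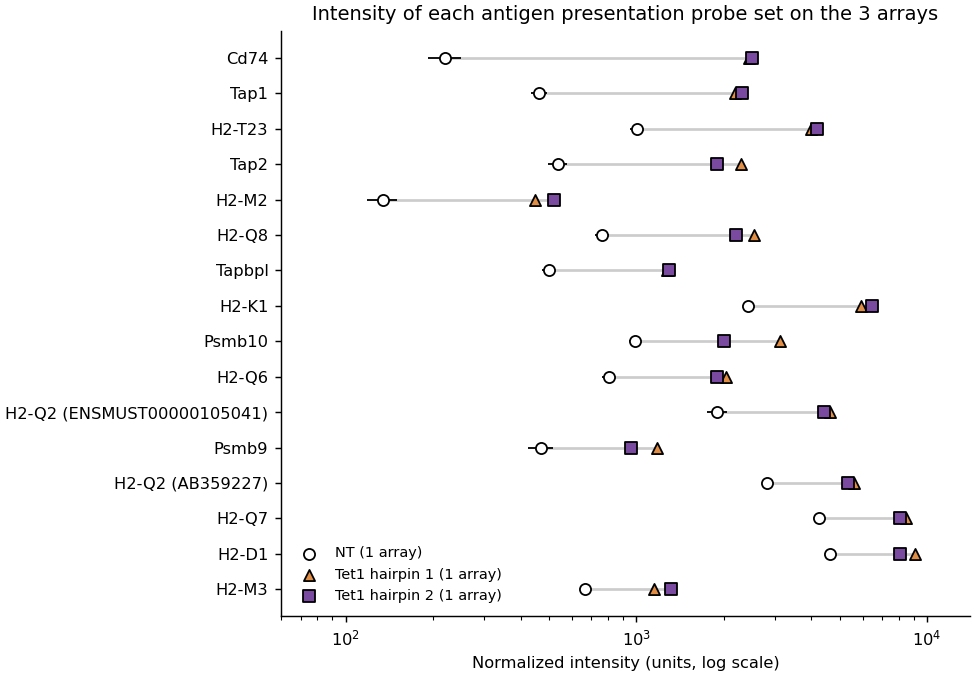
Normalized intensity in units (log axis) of each member probe set on the NT array (circle, with the standard error over its probes), under hairpin 1 (triangle) and under hairpin 2 (square). In all 16 rows both *Tet1* arrays lie to the right of NT, with the longest span for *Cd74*.

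Class I promoters are known to hold shared elements for interferon and NF-kB. Promoter stretches are therefore shown, before their values, for the 6 class I genes whose windows held an interferon response motif. The stretches are from RefSeq's assembly GRCm38.p6, of the reference strain and not of ATDC5 cells, and lie just before the annotated transcript start. Windows of 300 bases (250 before the start and 50 after) were matched for 11 of the 15 member genes, 8 of them class I genes. *H2-Q8*, *Tap2* and *Tapbpl* had none. No window of *Cd74* was used, so its promoter was not searched for the motifs. The windows of *H2-M2* and *H2-Q2* held neither interferon response motif given below and are not shown. Capitals mark letters that match one of these motifs on either strand: GGGANTCCC, a site of the NF-kB type; TTTCACTTC, the core of the interferon response element; GAAANNGAAA, spaced repeats of the interferon response type; TGACG, the core of the X2 element; and ATTGG, the core of the Y box.
*H2-K1* (chr17:34000351-34000467, minus strand): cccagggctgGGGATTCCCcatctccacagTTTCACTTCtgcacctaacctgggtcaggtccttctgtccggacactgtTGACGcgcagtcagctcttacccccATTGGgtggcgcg
*H2-D1* (chr17:35262914-35263030, plus strand): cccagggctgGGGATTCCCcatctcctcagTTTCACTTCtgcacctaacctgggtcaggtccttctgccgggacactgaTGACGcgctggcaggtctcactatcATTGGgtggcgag
*H2-Q6* (chr17:35424668-35424783, plus strand): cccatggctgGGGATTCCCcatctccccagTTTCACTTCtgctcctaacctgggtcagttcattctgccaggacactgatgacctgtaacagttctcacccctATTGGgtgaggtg
*H2-Q7* (chr17:35439012-35439127, plus strand): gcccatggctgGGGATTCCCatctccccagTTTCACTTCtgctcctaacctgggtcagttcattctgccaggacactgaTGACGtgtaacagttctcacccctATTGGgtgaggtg
*H2-M3* (chr17:37270103-37270225, plus strand): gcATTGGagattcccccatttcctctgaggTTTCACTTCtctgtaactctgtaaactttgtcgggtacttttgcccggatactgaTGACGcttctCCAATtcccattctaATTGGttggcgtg
*H2-T23* (chr17:36032741-36032855, minus strand): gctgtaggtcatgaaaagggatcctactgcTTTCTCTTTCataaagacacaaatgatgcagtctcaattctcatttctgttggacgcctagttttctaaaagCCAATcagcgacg

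In *H2-K1*, *H2-D1*, *H2-Q6* and *H2-Q7* the NF-kB type site was followed by the interferon response element core, and then by a Y box core. TTTCACTTC was found in 5 of the 8 class I windows, those of these 4 genes and *H2-M3*, and in 0.505% of the 32851 RefSeq promoter windows of this length. GGGANTCCC was found in 4 of the 8 and in 0.767% of all windows. The windows of related genes are copies of one another in part, with a longest identical run of 67 bases between *H2-Q6* and *H2-Q7* and of 47 bases between *H2-K1* and *H2-D1*, so shared motifs are not separate occurrences. The X2 core stood in 5 of the 8 (20.8% of all windows) and the Y box core in all 8 (37.4%). The spaced repeats GAAANNGAAA occurred in *H2-T23*, read on the other strand as TTTCTCTTTC, and in 3.44% of all windows. A further motif, the gamma-activated site TTCNNNGAA, stood in the window of *H2-M3*, outside the stretch shown, and in 8.30% of all windows. None of the searched motifs overlapped another in these windows. The motifs were chosen with the sequences and folds known, and a match is a description of letters, not of a bound site.

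**Figure D2:**
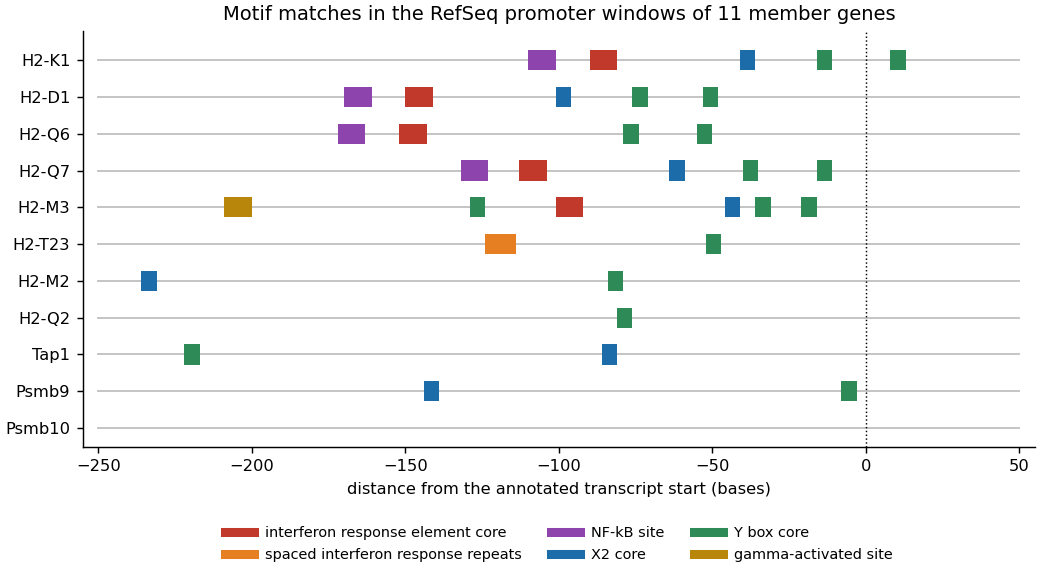
Position of each motif match in bases from the annotated transcript start (0, dotted line) in the 300-base windows of the 11 member genes whose window was used. The interferon response element core (red) begins between -152 and -90 bases in 5 class I genes, beside the NF-kB type site (purple) in 4 of them.

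Classical class I chains, which present peptides to cytotoxic T cells, rose about 2-fold. *H2-K1* had 2419.8 units in NT, 5923 under hairpin 1 and 6455 under hairpin 2, a mean log2 fold of 1.35 ± 0.22 (limma SE; adjusted p = 0.0033). *H2-D1* had 4634 units in NT, 9113 under hairpin 1 and 8053 under hairpin 2, a log2 fold of 0.89 ± 0.19 (limma adjusted p = 0.0279). For both genes the *Tet1* arrays were close to each other and far from NT, and the folds of *H2-K1* (2.45 and 2.67) lay above those of *H2-D1* (1.97 and 1.74) under each hairpin. The probes of such genes can share sequence with other class I genes, so the value of any single H2 probe set may hold signal of its relatives.

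Among nonclassical class I chains, which vary little between individuals, *H2-T23* had the largest fold. It encodes Qa-1, which presents leader peptides of other class I chains to inhibitory receptors. It had 1003 units in NT, 3987 under hairpin 1 and 4194 under hairpin 2, a log2 fold of 2.03 ± 0.25 (limma adjusted p = 0.000392). *H2-M2*, a less studied class I gene at the far end of the complex, had 134 units in NT, 447 under hairpin 1 and 521 under hairpin 2 (log2 fold 1.85 ± 0.37, limma adjusted p = 0.0184). It did not pass after quantile normalization (adjusted p = 0.0513).

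The Q region genes, a cluster of closely related copies that includes the genes of the Qa-2 antigen, rose as well. *H2-Q8* had 764 units in NT, 2537 under hairpin 1 and 2194 under hairpin 2, a log2 fold of 1.63 ± 0.28 (limma adjusted p = 0.00695). *H2-Q6* had 804, 2039 and 1896 units in the same order, a log2 fold of 1.29 ± 0.29 (limma adjusted p = 0.0339). *H2-Q7* had 4264, 8490.04 and 8055 units, a log2 fold of 0.96 ± 0.19 (limma adjusted p = 0.0173). All 3 were higher under hairpin 1 than under hairpin 2, by less than the distance of either from NT. *H2-Q2* was measured by 2 probe sets. The one annotated to ENSMUST00000105041 had 1899 units in NT, 4634 under hairpin 1 and 4434 under hairpin 2 (log2 fold 1.26 ± 0.23, limma adjusted p = 0.0104). The one annotated to AB359227 had 2817, 5598 and 5350.3 units (0.96 ± 0.22, limma adjusted p = 0.0366). The probe sets gave the same direction, and their folds under the hairpins (2.44 and 2.33 against 1.99 and 1.90) did not overlap. After quantile normalization *H2-Q6* and the AB359227 probe set of *H2-Q2* did not pass (adjusted p = 0.102 and 0.0844).

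*H2-M3*, which presents peptides with a formylated first residue, as bacteria and mitochondria make them, was the class I chain that did not pass. It had 666 units in NT, 1147 under hairpin 1 and 1319 under hairpin 2, a log2 fold of 0.89 ± 0.31 (limma adjusted p = 0.24). Its fold was the same as that of *H2-D1* to 2 decimals, with a larger limma SE. The standard deviations of the log2 folds between the hairpins were alike, at 0.14 for *H2-M3* and 0.13 for *H2-D1*. Of the 10 class I probe sets 9 passed, and their log2 folds ran from 0.89 to 2.03 with a median of 1.27, or 2.42-fold.

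**Figure D3:**
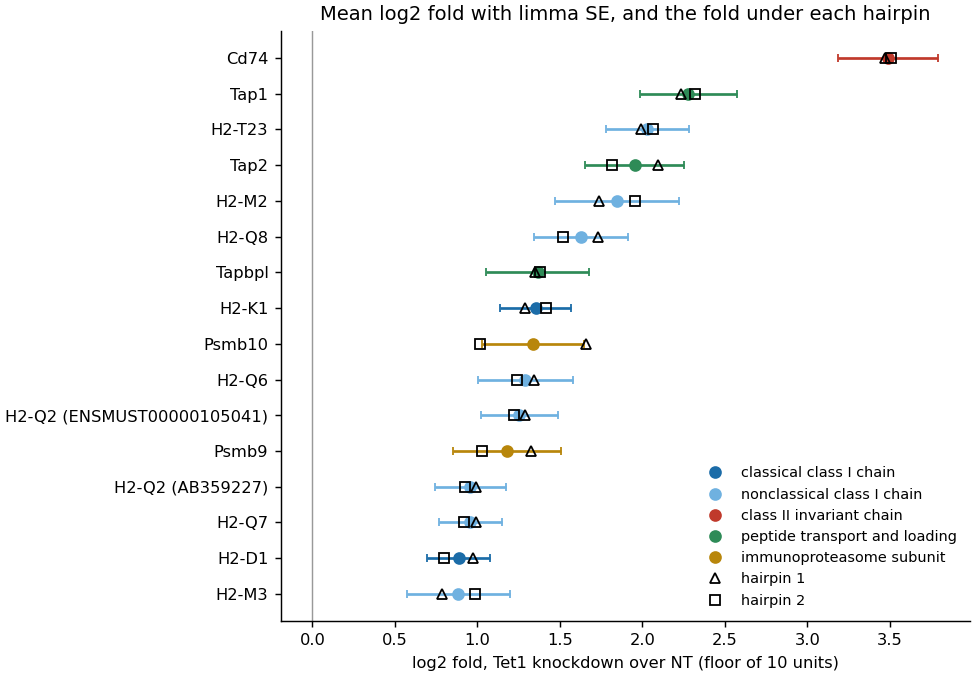
Mean log2 fold of *Tet1* KD over NT for each member probe set (filled circle, coloured by role; bar, limma SE), with the fold under hairpin 1 (triangle) and hairpin 2 (square). *Cd74* stands at 3.49, apart from *Tap1* at 2.28, and the class I chains lie between 0.89 and 2.03.

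The genes that supply class I chains with peptide were higher too. *Tap1* and *Tap2* encode the subunits of the TAP transporter. *Tap1* had 463 units in NT, 2181 under hairpin 1 and 2314 under hairpin 2, a log2 fold of 2.28 ± 0.29 (limma adjusted p = 0.000527). *Tap2* had 537, 2291 and 1889 units, a log2 fold of 1.95 ± 0.30 (limma adjusted p = 0.00246). *Tapbpl*, a relative of tapasin that edits peptides on class I chains, had 499.7 units in NT, 1273 under hairpin 1 and 1300.1 under hairpin 2, a log2 fold of 1.36 ± 0.31 (limma adjusted p = 0.0406). In each of these genes the lower *Tet1* array was at least 2.5-fold above NT. *Tapbpl* did not pass after quantile normalization or median centring (adjusted p = 0.0886 and 0.0514).

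The immunoproteasome subunits replace catalytic subunits of the constitutive proteasome. *Psmb10* had 987 units in NT, 3117 under hairpin 1 and 1999 under hairpin 2. Its hairpins differed by 0.64 on the log2 scale, the widest gap among the members. Its log2 fold was 1.34 ± 0.31 (limma adjusted p = 0.0426), and it did not pass after quantile normalization or median centring (adjusted p = 0.163 and 0.0572). The median gap of the members was 0.11. It was 0.195 for the other higher named probe sets of the authors' table and 0.26 over all tested probe sets. All members had passed the selection on these arrays, and the difference in gap was not tested. *Psmb9* had 470.1 units in NT, 1179 under hairpin 1 and 959.9 under hairpin 2, a log2 fold of 1.18 ± 0.33 that did not pass (limma adjusted p = 0.106). Both subunits were at least 2-fold above NT under each hairpin and higher under hairpin 1.

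*Psmb9* and *Tap1* are transcribed away from each other from one short region, and in GRCm38.p6 their annotated starts lay 226 bases apart on opposite strands. Their promoter windows shared 275 bases. The window of *Tap1* is shown for that reason, with a Y box core (written CCAAT on this strand) and an X2 core in capitals.
*Tap1* (chr17:34187306-34187605, plus strand): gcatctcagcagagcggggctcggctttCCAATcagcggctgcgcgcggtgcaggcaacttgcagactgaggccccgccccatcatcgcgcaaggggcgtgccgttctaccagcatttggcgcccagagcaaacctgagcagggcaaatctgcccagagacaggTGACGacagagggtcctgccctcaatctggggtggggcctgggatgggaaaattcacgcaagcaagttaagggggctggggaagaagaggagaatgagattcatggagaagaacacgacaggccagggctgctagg
No interferon response element core of the searched letters stood in this window. Over this shared stretch the folds were unlike: the log2 folds of *Tap1* (2.23 under hairpin 1 and 2.32 under hairpin 2) did not overlap those of *Psmb9* (1.33 and 1.03).

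*Cd74* had the largest fold of the members. Besides its chaperone role for class II chains, its protein is known as a surface receptor for the cytokine MIF. Its intensity was 220.2 units in NT, 2440.2 under hairpin 1 and 2504 under hairpin 2, which is 11.1-fold and 11.4-fold. The *Tet1* arrays differed by 0.04 on the log2 scale, and the log2 fold was 3.49 ± 0.30 (limma adjusted p = 2.28e-05). The standard error of its NT value over its probes was 12.9%, the highest among the members, which ran from 1.80% with a median of 5.33%. Its mean log2 fold lay 2.22 above the class I median, a 4.65-fold larger fold, and 1.46 above that of *H2-T23*, the highest class I chain (1.48 under hairpin 1 and 1.44 under hairpin 2). With 1 gene on the class II side this distance was not tested.

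The other named genes whose pair of folds lay nearest to that of *Cd74*, by Euclidean distance over the log2 folds under the 2 hairpins, were *Tgtp1*, *Rsad2*, *Csprs*, *Mfap4* and *Cxcl11*. *Tgtp1*, listed as *Tgtp*, is an interferon-inducible GTPase, and it went from 573 units in NT to 6476 and 6036 units (distance 0.113). *Rsad2*, the antiviral protein viperin, went from 377 to 3844 and 4530.4 units (0.144). Both are known interferon-induced genes, as is the chemokine *Cxcl11*, which went from 498 to 4623 and 5106 units (0.294). *Mfap4*, a protein of extracellular microfibrils, went from 189.5 to 1771 and 2059 units (0.254), and *Csprs* from 76.5 to 735 and 844 units (0.210). Likeness here rests on 2 values per gene.

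In the order of mean log2 fold, 10 of the 15 pairs of neighbouring members had overlapping hairpin folds and 5 did not. The order was made from these same folds, so the counts are a description. Their share among other probe sets was not counted. The folds of *Cd74* lay above those of *Tap1*, and those of *Tap1* above those of *H2-T23*. *H2-T23*, *Tap2* and *H2-M2* overlapped in turn. *H2-M2* then lay barely above *H2-Q8*, with nearest log2 folds of 1.737 and 1.731 and limma SEs of 0.37 and 0.28. *H2-Q8* lay above *Tapbpl*. From *Tapbpl* down to *Psmb9* each member overlapped the next, as did the probe sets from *H2-Q2* (AB359227) through *H2-Q7* and *H2-D1* to *H2-M3*. Hairpin 2 gave the higher intensity in 7 members and hairpin 1 in 9. Among the 785 other higher named probe sets, hairpin 2 was the higher in 540 and hairpin 1 in 245. Over all 27311 tested probe sets these counts were 12391 and 14918. The difference between these shares was not tested.

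**Figure D4:**
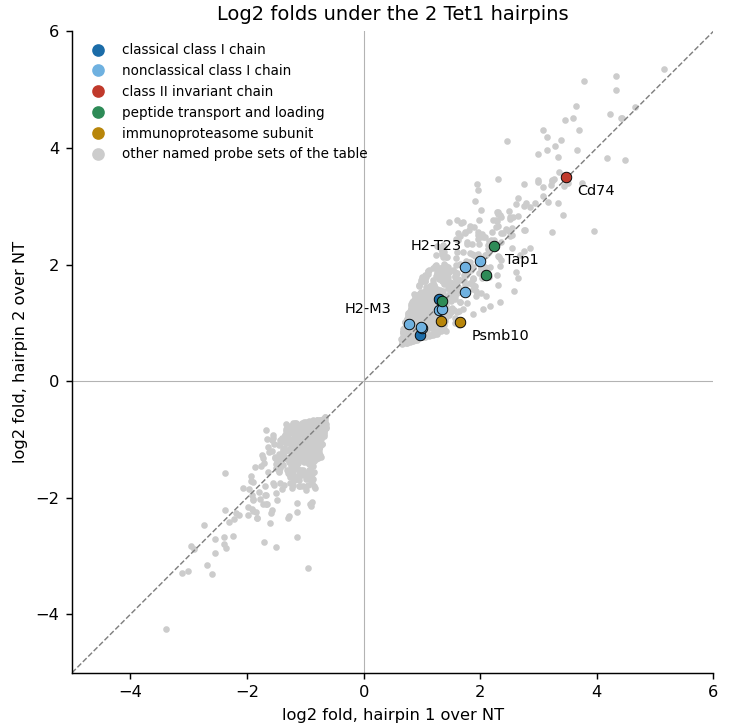
Log2 fold over NT under hairpin 1 (x axis) and hairpin 2 (y axis) for the 16 member probe sets (coloured by role) and the other named probe sets of the authors' table (grey); the dashed line marks equal folds. *Psmb10* lies farthest from the line among the members, and the empty centre is where the selection left no probe sets.

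Most of the members lie in the MHC itself. Between *H2-K1* and *H2-M2*, RefSeq (GRCm38.p6) annotates 283 genes on chromosome 17, and the table named 17 of them, 11 members and 6 other genes. Of these 6, 5 were higher under both hairpins and 1 was lower. *C4a*, a complement gene, went from 199.6 units in NT to 589 under hairpin 1 and 692 under hairpin 2 (log2 fold 1.68, limma adjusted p = 0.0252) and was the one that passed, though not after quantile normalization (adjusted p = 0.0602). Its close copy *C4b*, complement component C4, had 291, 586 and 808 units (1.24, adjusted p = 0.123), and probes of the pair may be shared. The other higher genes, *Trim26* (log2 fold 0.94), *Atf6b* (0.70) and BC051142 (1.07), missed the threshold. *Trim10*, between *H2-T23* and *H2-M3*, had 463 units in NT, 249 under hairpin 1 and 105 under hairpin 2 (-1.52, adjusted p = 0.172). The 1 lower named gene, which did not pass, thus stood among higher ones in the complex. Unnamed genes there were not analysed here. The other 4 member genes were not in this stretch: *Cd74*, *Tapbpl* and *Psmb10* are on other chromosomes, and RefSeq places *H2-Q8* on a separate sequence.

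**Figure D5:**
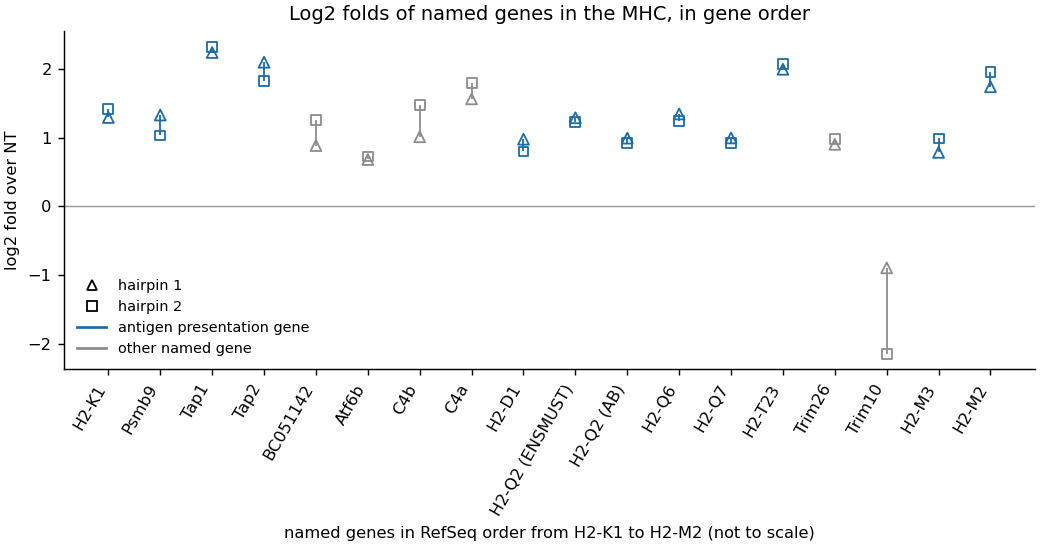
Log2 fold over NT under hairpin 1 (triangle) and hairpin 2 (square) of the named genes from *H2-K1* to *H2-M2* in RefSeq order, not to scale; blue marks antigen presentation genes and grey other named genes. *Trim10* is the gene below 0.

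Other genes of presentation were counted by list, as far as the table named them. Of 19 further class I pathway genes the table named 1, *Erap1*, the peptidase that trims peptides in the endoplasmic reticulum. It rose from 560.3 units to 1477 under hairpin 1 and 1319.8 under hairpin 2 (log2 fold 1.32 ± 0.31, limma adjusted p = 0.0465), and it did not pass after quantile normalization or median centring (adjusted p = 0.108 and 0.0568). Of 17 further class II pathway genes it named 1, *Ifi30*, a thiol reductase of lysosomes that unfolds antigens for class II, and this gene fell. It had 5012 units in NT, 1845 under hairpin 1 and 1721 under hairpin 2 (log2 fold -1.49 ± 0.25, limma adjusted p = 0.00536). *Cd74* and *Ifi30*, the named genes of the class II pathway, thus moved in opposite directions under both hairpins.

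Of 14 genes of costimulation and adhesion 3 were named and all 3 rose. *Icosl*, the ligand of the T cell costimulator ICOS, went from 226 to 1315 and 1402 units (log2 fold 2.59 ± 0.33, limma adjusted p = 0.000439). *Vcam1*, an adhesion molecule for leukocytes, went from 2117 to 7180.1 and 7466 units (1.79 ± 0.21, limma adjusted p = 0.000249). *Cd274*, the inhibitory ligand PD-L1, went from 273 to 894 and 961 units (1.77 ± 0.34, limma adjusted p = 0.0123).

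Of 22 genes upstream of MHC transcription, interferon signalling factors for the most part, 8 were named, 5 rose and 3 did not pass. After quantile normalization 2 of the 5 passed, without *Irf1*, *Irf2* and *Irf9* (limma adjusted p = 0.0844, 0.125 and 0.0862). With median centring 4 passed, without *Irf2* (limma adjusted p = 0.052). *Irf7*, which drives interferon genes, went from 275 units in NT to 2181 under hairpin 1 and 4104 under hairpin 2 (log2 fold 3.44 ± 0.36, limma adjusted p = 8.72e-05). *Stat2* and *Irf9*, which act together in the type I interferon response, rose by 1.57 and 1.19 on the log2 scale (limma adjusted p = 0.008 and 0.0238). *Irf2* and *Irf1*, which bind interferon response elements, rose by 1.08 and 0.98 (limma adjusted p = 0.0465 and 0.0349). The feedback inhibitor *Socs1*, the kinase *Tyk2* and the NF-kB subunit *Relb* missed the threshold, at log2 folds of 1.08, 0.78 and 0.77 (limma adjusted p = 0.128, 0.352 and 0.366). No named gene of this list was lower than NT, and all 8 had been selected in the authors' table on these arrays.

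Leukocytes carry class II molecules and *Cd74*, so their markers were counted beside these results. Of 14 leukocyte markers 2 were named, and they moved in opposite directions. *Lyz2*, lysozyme of myeloid cells, rose from 488 units in NT to 1974 under hairpin 1 and 1400.05 under hairpin 2 (limma adjusted p = 0.00977). *Cd68*, a lysosomal protein of macrophages, fell from 4424 to 1458 and 819.6 units (limma adjusted p = 0.00459). The other 12, *Ptprc* among them, were not analysed here, and the part of other cell types in the rise of *Cd74* was not tested. Of 10 chondrocyte markers 3 were named and all 3 fell: *Acan*, *Hapln1* and *Col2a1* had log2 folds of -2.92, -2.24 and -1.45. These 3 too had been selected in the authors' table on these arrays. The arrays thus also differed in the expression of these chondrocyte genes where antigen presentation genes were higher. The part of differentiation in these results was not tested. The probe sets of *Tet1* itself, the targeted gene, were lower under both hairpins on 3 of 3, at log2 folds of -1.28, -1.01 and -1.06 that missed the limma threshold (adjusted p = 0.133 to 0.186). Of the 15 genes of these further lists that passed, 8 did not pass after quantile normalization (*Erap1*, *Irf1*, *Irf2*, *Irf9*, *Lyz2*, *Cd68*, *Hapln1* and *Col2a1*), 3 of which (*Erap1*, *Irf2* and *Col2a1*) also did not after median centring. Without the intensity trend 3 of the 15 passed (*Irf7*, *Icosl* and *Acan*), and 0 of the 15 with dim probe sets kept. The median intensity over all probe sets was 305 units in NT, 279.6 under hairpin 1 and 264 under hairpin 2.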

How the data were processed

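Total RNA of ATDC5 cells was hybridized to Affymetrix Mouse Gene 1.0 ST arrays, 1 NT and 2 *Tet1* KD arrays. Normalization by the authors was to an invariant probe set in dChip, with model-based expression, so the deposited intensity values are linear. A change common to most genes could have been removed in part. A median log2 fold of -0.12 over the tested probe sets remained. The submitters' processing notes name mm9. A second table held the authors' own comparison of 1524 selected probe sets (per the file headers, a lower bound on the fold of 1.5 and over 100 units between groups). Its gene names, intensities and the NT standard error were used. Its group means, folds, bounds and differences were not. Its intensities equalled those of the full table. A further array that its header names was not analysed here.

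Of 1330 named probe sets, accessions tied 1084 to current RefSeq symbols (GRCm38.p6), symbols tied 112, older symbols 75, and 59 stayed as listed. Of the members 13 matched by accession and 3 by symbol. Intensities were floored at 10 units before log2. Probe sets averaging 100 units or more over the arrays (27311) were tested in limma 3.58.1 (R 4.3.3; lmFit, and eBayes with an intensity trend), *Tet1* KD against NT, two-sided, with Benjamini-Hochberg adjustment, leaving 1 residual degree of freedom. In simulated data of this design, false calls made up a larger share of calls than the threshold allows, so the adjusted p-values are optimistic. Folds of at least 2.5 were counted over all 35512 probe sets without a test. All members were named, as were up to 8 genes per further list and the 5 genes nearest to *Cd74*. Other genes of the MHC stretch were chosen after their values were seen. One gene of the further lists is not reported here and is not in their counts. The members and lists were chosen with earlier results of these data known. Alternatives were log2(value + 32), quantile normalization, median centring, no filter, a filter at 200 units, eBayes without the trend, and leaving out each *Tet1* array.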

Additional observations from a re-analysis of the deposited data

How the results depend on the processing

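The log2 folds of the members, the class I median and its distance from *Cd74* did not change direction under the alternatives tried. All 16 member probe sets kept a log2 fold above 0, from 0.78 to 3.61. The count of members that passed limma was 14, and it was 14 with log2(value + 32), 14 with the filter at 200 units, 12 after median centring (without *Tapbpl* and *Psmb10*), 9 after quantile normalization (without *H2-M2*, *Tapbpl*, *Psmb10*, *H2-Q6* and the AB359227 probe set of *H2-Q2*), 2 without the intensity trend and 0 without the filter on dim probe sets, where 2229 of 35512 probe sets and all 16 members had an unadjusted p under 0.05. Over all probe sets, 372 passed as higher and 106 as lower. These were 188 and 34 after quantile normalization, 87 and 21 without the trend, and 0 and 0 without the filter. The lower calls were 48 after median centring and 222 with the filter at 200 units. The class I median log2 fold of 1.27 was 1.39 after median centring and ran from 1.23 to 1.29 when each *Tet1* array was left out. For *Cd74*, 3.49 became 3.31 with log2(value + 32), 3.56 after quantile normalization and 3.61 after median centring, and ran from 3.47 to 3.51 with an array left out. Class I minus *Cd74*, -2.22, was -2.06 with log2(value + 32), -2.30 after quantile normalization, and from -2.28 to -2.18 with an array left out. The cause of these shifts was not tested. Leaving out a *Tet1* array leaves no residual degrees of freedom, so limma counts were not made. No paired analysis was possible because NT had 1 array and the groups share a single number. No member was under 100 units in NT, and 54 of the 1524 selected probe sets were.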
